A study of Mus musculus with 6 samples.

Results

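The genes described here are 10 members of the insulin and IGF signalling pathway: the growth factor Igf2, the IGF-binding protein Igfbp5, the receptors Insr and Igf1r, the receptor substrates Irs1 and Irs2, the PI3-kinase subunits Pik3r1 and Pik3ca, and the kinases Akt1 and Akt2. They were taken by symbol from the deposited table of raw counts, and 10 of the 10 were found among its 12625 genes. RNA was sequenced from C2C12 cells, an established mouse myoblast line whose cells fuse into multinucleated myotubes. At 5 days of differentiation, myotubes of 3 libraries received 100 ng/ml of recombinant mouse RANKL for 72 h and those of 3 libraries received vehicle. RANKL is a TNF-family ligand best known for driving osteoclast formation. Both groups are the same line, no animal tissue was used, and nothing in the labels says that replicates were separate cultures, so p-values measure only the spread between these libraries, which may be technical.

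Insulin and the IGFs bind related receptor tyrosine kinases, which phosphorylate IRS proteins. Phosphorylated IRS proteins recruit PI3-kinase, whose lipid product brings AKT to the membrane, and AKT then raises glucose uptake and protein synthesis and holds FoxO transcription factors out of the nucleus. In differentiating C2C12 cells, IGF2 is known as an autocrine factor that promotes fusion, and IGFBP5 is the binding protein that these cells characteristically secrete. The counts measure RNA and carry no information on the phosphorylation through which the pathway signals.

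The libraries held 32732604 to 39677999 counts, and the members 629 to 74483 counts in any 1 library. On principal components the groups fell apart along the first (56.0% of variance), while RANKL replicates 1 and 3 lay farthest apart along the second (14.7%). Myotube markers were abundant, with a summed level of 29297 to 30069 counts per 1000000 (CPM) in RANKL libraries and 30931 to 33237 CPM in vehicle libraries. By the test described in the next paragraph, 4 of 13 such markers were called lower with RANKL (Myh3, Myh8, Acta1 and Actn2) and 0 higher. Over all genes 7.5% were called lower and 5.35% higher, shares that apply to the other marker counts here too. In 5 myotube markers every RANKL library lay below every vehicle library, and in 1 (Tnnt1) above. Markers of cycling and unfused myoblasts summed to 141 to 166 CPM in RANKL libraries and 106 to 114 CPM in vehicle libraries, and 5 of 7 were higher (Mki67, Top2a, Cdk1, Ccnb1 and Ccna2). These 5 are cell-cycle genes, and the myoblast markers Pax7 (log2 fold change -0.31) and Myf5 (0.14) did not pass. Of 12 macrophage and osteoclast markers only Cd68 and Itgam were in the table, at a summed 1.54 to 2.47 CPM in RANKL libraries and 1.20 to 1.35 CPM in vehicle libraries, and neither passed the test. Of 7 measured fibroblast and adipocyte markers 1 was higher (Col3a1), and their sum was 4916 to 5493 CPM in RANKL libraries and 4442 to 4694 CPM in vehicle libraries. The 4 called myotube markers and 5 called cell-cycle markers differ between the same libraries as the members described next, and their part in those results was not tested. The other 9 myotube markers did not pass. In such bulk RNA, fewer cells of a type and less RNA per cell cannot be told apart.

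Irs1 and Igfbp5 fell in the RANKL libraries, by 17.7% and 17.6% of the vehicle level, and 0 members rose. A gene was called when its adjusted p was under 0.05 in edgeR's quasi-likelihood test with Benjamini-Hochberg adjustment over 12625 genes. By that rule 2 of 10 members were called lower and 0 higher, where 7.5% of all genes were called lower, 5.35% higher and 12.9% either way. At an unadjusted p under 0.05 in the same test stood 7 of 10 members, each with a negative value, and 3432 of all 12625 genes. The split of calls over all genes moved with scaling, from 676 higher and 947 lower with TMM scaling to 1070 higher and 626 lower with total counts, while the 2 members remained called. The log2 fold change (RANKL over vehicle) was negative for 9 of 10 members with TMM scaling, against 48.3% of all genes. With total counts the value of Akt2 was above 0 as well as that of Pik3ca. The members' median was -0.10, against 0.00 over all genes. In 6 members every RANKL library lay below every vehicle library (Igf1r, Irs1, Irs2, Akt1, Pik3r1 and Igfbp5), an arrangement seen in 16.6% of all genes. The reverse arrangement was seen in 0 members and in 14.9% of all genes.

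**Figure D1:**
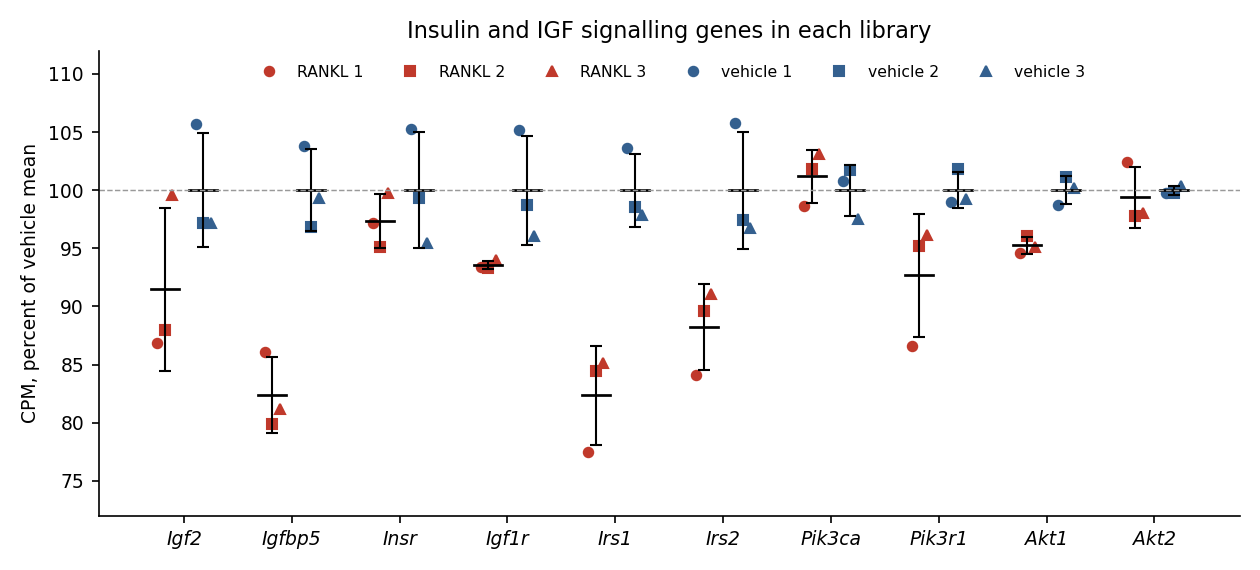
Level of each of the 10 members in each of the 6 libraries, as a percentage of that gene's vehicle mean CPM, with RANKL libraries left of vehicle libraries horizontal bars at the group means and vertical bars of 1 SD each way. The axis does not start at 0. The 3 RANKL libraries lie at 77.4% to 85.2% of the vehicle mean for Irs1 and at 79.9% to 86.1% for Igfbp5, while Insr, Akt2 and Pik3ca sit close to the vehicle level.

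Summed over the members, the level was 2874 to 2973 CPM in RANKL libraries and 3264 to 3411 CPM in vehicle libraries, and Igfbp5 made up most of that sum. The called changes were modest in size, as were most in the experiment: 86.2% of all called genes had a log2 fold change between -0.5 and 0.5. By p-value Igfbp5 ranked 143 and Irs1 172 among the 12625 genes. Among the 947 genes called lower, 197 had a log2 fold change at or below that of Irs1.

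**Figure D2:**
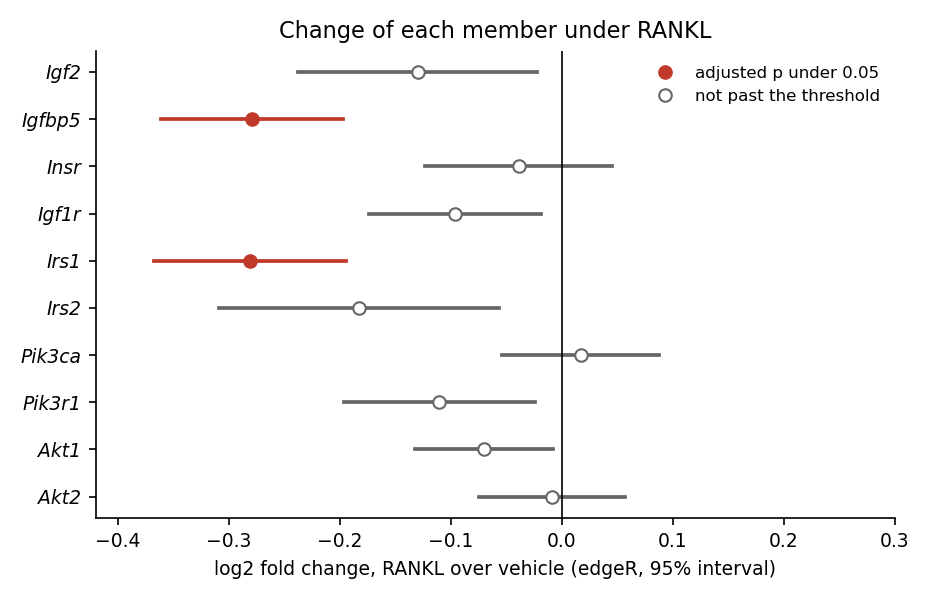
Log2 fold change of each member, RANKL over vehicle, with its 95% interval from edgeR, filled where the adjusted p is under 0.05. Irs1 and Igfbp5, both at -0.28, are the called members, and the interval of Pik3ca, -0.05 to 0.09, includes 0.

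Among the extracellular members, Igfbp5 carried the change. It encodes a secreted protein that binds IGFs and sequesters or presents them, and it lies on the minus strand of chromosome 1 (mm10, 72857932 to 72874884). Igfbp5 had 1589, 1475 and 1498 CPM in the RANKL libraries, against 1916, 1787 and 1833 CPM in the vehicle libraries. The highest RANKL library was below the lowest vehicle library. The means were 1520 ± 60.3 and 1845 ± 65.6 CPM (SD, n = 3 each), and the log2 fold change was -0.28 ± 0.04 (SE, adjusted p = 0.000298). In linear terms Igfbp5 decreased by 17.6% (95% interval -22.1% to -12.8%). RANKL replicate 1 was the highest of its group here.

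Igf2, the fetal growth factor that signals through Igf1r and Insr, had 85.0, 86.1 and 97.4 CPM in the RANKL libraries, against 103.4, 95.04 and 95.05 CPM in the vehicle libraries. RANKL replicate 3 lay within the vehicle range and the other two RANKL libraries below it, so the groups overlapped. The means were 89.5 ± 6.87 CPM with RANKL and 97.8 ± 4.81 CPM with vehicle, and the log2 fold change of -0.13 ± 0.05 did not pass (adjusted p = 0.107). Without RANKL replicate 3 the value was -0.19 with an adjusted p of 0.00884, so this library decides the call. Igf2 (chromosome 7, 142650766 to 142666816, minus strand) shares 62.8% of its exon bases with the same-strand gene model Gm49394 and 1.71% with the antisense gene Igf2os. Neither partner was in the table and how strand and shared reads were handled is not stated, so the Igf2 counts are uncertain to that extent. H19, the imprinted noncoding RNA next to Igf2 (142575529 to 142578143), averaged 9905 ± 207 CPM in RANKL libraries and 9999 ± 48.5 CPM in vehicle libraries. Its log2 fold change was -0.01 ± 0.04 (adjusted p = 0.849), and its sign was positive with total-count scaling.

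The receptors showed no called difference. Insr, the insulin receptor (chromosome 8, 3122061 to 3279617, minus strand), had 90.0, 88.0 and 92.3 CPM with RANKL and 97.5, 91.9 and 88.3 CPM with vehicle. The groups overlapped, and vehicle replicate 1 was the highest of the 6 libraries. The log2 fold change was -0.04 ± 0.04 (95% interval -0.12 to 0.05, adjusted p = 0.576). Igf1r, the receptor for IGF1 and IGF2 that dominates growth signalling in myoblasts, lies on chromosome 7 (67952827 to 68233668, plus strand). It had 142.3, 142.2 and 143.2 CPM with RANKL and 160.3, 150.5 and 146.3 CPM with vehicle. The 3 RANKL libraries were nearly identical, with a coefficient of variation of 0.391%, and lay below a more scattered vehicle group with 4.73%. The log2 fold change of -0.10 ± 0.04 (-0.17 to -0.02) did not pass after adjustment (adjusted p = 0.099), and was -0.06 without vehicle replicate 1 (adjusted p = 0.352).

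Both receptor substrates had lower values in every RANKL library than in any vehicle library, but only Irs1 passed the test. Irs1 docks PI3-kinase to the activated receptors and is the substrate most often linked to glucose uptake and growth in muscle. It is on the minus strand of chromosome 1 (82233101 to 82291416), and 30.9% of its exon bases also lie in the opposite-strand gene Gm9747, which was not in the table. Irs1 had 105.3, 114.8 and 115.8 CPM with RANKL, against 140.8, 133.9 and 133.0 CPM with vehicle. RANKL replicate 1 was the lowest of its group, and the groups did not overlap. The means were 111.9 ± 5.80 and 135.9 ± 4.25 CPM, and the log2 fold change was -0.28 ± 0.04 (adjusted p = 0.000436). In linear terms Irs1 decreased by 17.7% (95% interval -22.5% to -12.6%). Irs2, the second widely expressed substrate (chromosome 8, 10984681 to 11008458, minus strand), had 17.5, 18.7 and 18.99 CPM with RANKL and 22.1, 20.3 and 20.2 CPM with vehicle. Its groups did not overlap, and its log2 fold change of -0.18 ± 0.06 (95% interval -0.31 to -0.06) missed the threshold (adjusted p = 0.0568). Irs2 shares 2.56% of its exon bases with an antisense gene that was not in the table.

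The 250 bases upstream of the annotated start of Irs1 and of Igfbp5 are shown because these are the called members. They come from RefSeq on GRCm38.p6, are written 5′ to 3′ on the gene's own strand, and have in capitals the letters that match the kappa B consensus, the motif bound by NF-kB factors, on either strand.
Irs1, chr1:82291440-82291689, minus strand: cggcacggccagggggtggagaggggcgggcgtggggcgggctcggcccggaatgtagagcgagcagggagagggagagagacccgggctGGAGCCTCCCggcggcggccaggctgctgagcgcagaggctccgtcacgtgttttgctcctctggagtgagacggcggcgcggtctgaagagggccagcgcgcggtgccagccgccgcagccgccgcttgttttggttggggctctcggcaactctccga
Igfbp5, chr1:72874866-72875115, minus strand: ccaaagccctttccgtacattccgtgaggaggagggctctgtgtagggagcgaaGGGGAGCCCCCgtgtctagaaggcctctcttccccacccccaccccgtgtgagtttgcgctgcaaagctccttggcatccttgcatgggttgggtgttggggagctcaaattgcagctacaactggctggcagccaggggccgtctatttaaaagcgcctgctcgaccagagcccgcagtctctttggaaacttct
Irs1 held 1 match, whose first base lies 160 bases before the start, and Igfbp5 held a pair of overlapping matches, the first of them 196 bases before it. Windows of 250 bases before to 50 bases after a start were found for 9 members, 17 windows in all. Of these, 4 held the kappa B consensus (1 each of Irs1, Igfbp5, Pik3r1 and Akt2), as did 8.46% of 32851 windows of all genes. The FoxO motif GTAAACA was in 1 member window (Akt1) and 3.65% of all windows, the E-box CAGCTG in 1 (Akt2) and 16.3%, and TATAAA in 0 and 8.32%. TATAAA was sought on the gene's own strand only and the other motifs on both strands, and a match describes these letters only. The window of Irs1 had 71.3% G and C and that of Igfbp5 56.3%, against a median of 52.7% over all windows. Of the Pik3r1 windows, the 1 with the kappa B match had 75.7% and the other 43.7%.

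The PI3-kinase subunits differed from each other in where their values lay. Pik3r1, which encodes the regulatory subunit that binds IRS proteins and steadies the catalytic subunit, had 91.2, 100.3 and 101.2 CPM with RANKL and 104.2, 107.1 and 104.5 CPM with vehicle. RANKL replicate 1 stood below the other two of its group, and the groups did not overlap. The log2 fold change was -0.11 ± 0.04 (95% interval -0.20 to -0.02, adjusted p = 0.0884), and -0.06 without RANKL replicate 1 (adjusted p = 0.309). Pik3ca, the catalytic subunit alpha, had 129.5, 133.6 and 135.4 CPM with RANKL and 132.3, 133.5 and 128.0 CPM with vehicle, and the groups were interleaved. Its log2 fold change of 0.02 ± 0.03 had an interval of -0.05 to 0.09 (adjusted p = 0.798). Pik3r1 lies on chromosome 13 (101680563 to 101768217, minus strand) and Pik3ca on chromosome 3 (32397671 to 32468486, plus strand).

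Akt1 and Akt2, the AKT isoforms tied to growth and to insulin-stimulated glucose transport, did not pass the test. Akt1 (chromosome 12, 112653821 to 112674884, minus strand) had 414.3, 420.7 and 416.8 CPM with RANKL and 432.5, 442.8 and 438.9 CPM with vehicle. Both groups were tight, with coefficients of variation of 0.773% and 1.18%, and they did not overlap. Its log2 fold change was -0.07 ± 0.03 (95% interval -0.13 to -0.01, adjusted p = 0.132), and -0.04 with total-count scaling (adjusted p = 0.412). Akt2 (chromosome 7, 27591552 to 27640826, plus strand) had 309.6, 295.6 and 296.4 CPM with RANKL and 301.7, 301.8 and 303.8 CPM with vehicle. RANKL replicate 1 lay above and the other two below all vehicle libraries. The log2 fold change of -0.01 ± 0.03 had an interval of -0.07 to 0.06 (adjusted p = 0.886), and its sign was positive with total-count scaling.

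Levels of different genes were compared per length, as reads per kilobase of gene per 1000000 reads (RPKM) from the authors' deposited log2 table, whose unit was read from its values. Igfbp5 led in both groups, with 259.7 ± 10.3 RPKM with RANKL and 315 ± 11.2 RPKM with vehicle, rank 132 of all genes in the vehicle group. Akt1 followed at 155 ± 1.20 and 163 ± 1.93 RPKM, then Akt2 at 92.7 ± 2.42 and 93.3 ± 0.363 RPKM and Igf2 at 21.1 ± 1.62 and 23.1 ± 1.14 RPKM. These 4 differed from their neighbours in the order by more than their spread. A group of 4 genes followed within a few RPKM of each other. With RANKL they ran Pik3ca (14.9 ± 0.338), Pik3r1 (13.3 ± 0.751), Irs1 (12.2 ± 0.633) and Igf1r (11.9 ± 0.0465 RPKM), and the ranges of Pik3r1 and Irs1, and of Irs1 and Igf1r, overlapped. With vehicle they ran Irs1 (14.8 ± 0.464), Pik3ca (14.7 ± 0.326), Pik3r1 (14.3 ± 0.219) and Igf1r (12.7 ± 0.601 RPKM), and the ranges of Irs1 and Pik3ca, and of Pik3ca and Pik3r1, overlapped. By its mean, Irs1 was the third of these 4 with RANKL and the first with vehicle. The order rests on the lengths behind the deposited values, which for many genes differ from the annotated exon lengths. With other lengths the order of these 4 may change, which was not tried. Insr (9.64 ± 0.231 and 9.90 ± 0.491 RPKM) and Irs2 (4.60 ± 0.191 and 5.21 ± 0.264 RPKM) came last in both groups.

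**Figure D3:**
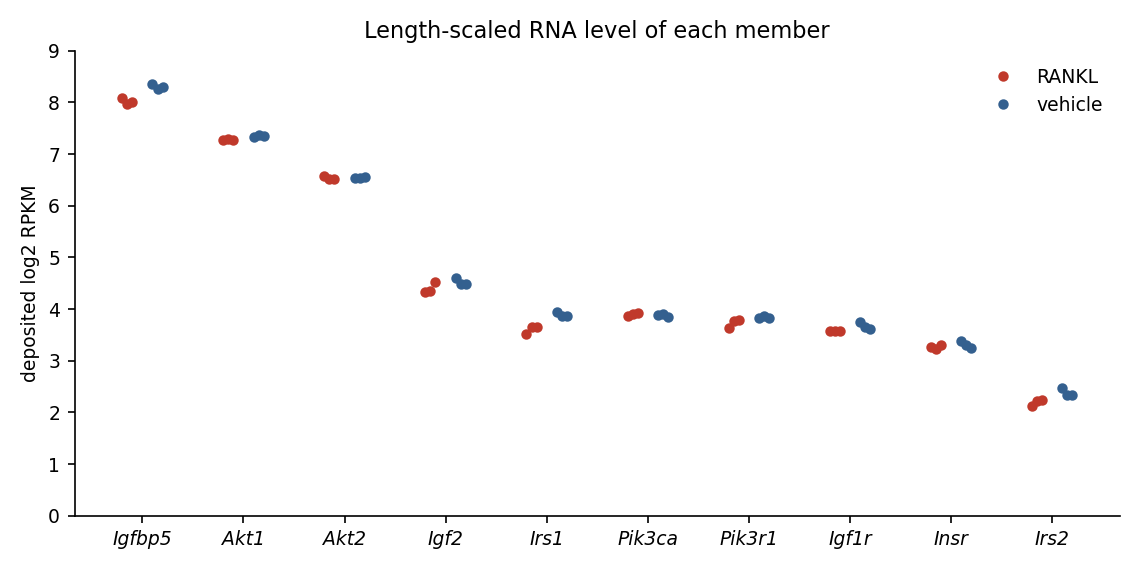
Level per length of the 10 members, as the deposited log2 RPKM values, each point 1 library, RANKL left of vehicle, ordered by the vehicle mean. Igfbp5 is highest and Irs2 lowest in both groups, and Irs1 with RANKL (a mean of 12.2 RPKM) lies close to Igf1r with RANKL (11.9 RPKM).

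Within each pair of partners the balance was compared as a ratio of RPKM values, with an exact two-sided permutation test that cannot go below 0.1 with 3 libraries against 3. The ratio of Pik3r1 to Pik3ca was 0.853, 0.909 and 0.905 with RANKL and 0.954, 0.972 and 0.989 with vehicle. These groups did not overlap, and the exact p was 0.1, the smallest possible, or 0.125 adjusted over the 5 ratios. Irs1 to Irs2 was 2.66 ± 0.0311 with RANKL and 2.85 ± 0.0537 with vehicle, Igf1r to Insr 1.24 ± 0.0251 and 1.29 ± 0.00745, and Akt1 to Akt2 1.67 ± 0.0541 and 1.75 ± 0.0206, again without overlap and with the same exact p (n = 3 each). The ratio of Igfbp5 to Igf2 was 12.3 ± 1.20 with RANKL and 13.7 ± 0.275 with vehicle, and its groups overlapped (exact p = 0.2). None of the 5 could pass a threshold of 0.05 in this design. The groups of Pik3r1, Irs1, Igf1r and Akt1 did not overlap for each gene alone, so their ratios partly restate those values.

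Of the other genes of the pathway, 92 of 101 listed were measured, and 8 were called higher and 11 lower, together 20.7% against the 12.9% of all genes. Their median log2 fold change was -0.02. The lists cover 10 roles and were described by counts only. They were chosen with earlier results of these data known, so the 20.7% is no test of the pathway. Beside the counts of each role below stand the shares over all genes, 7.5% called lower and 5.35% higher.

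**Figure D4:**
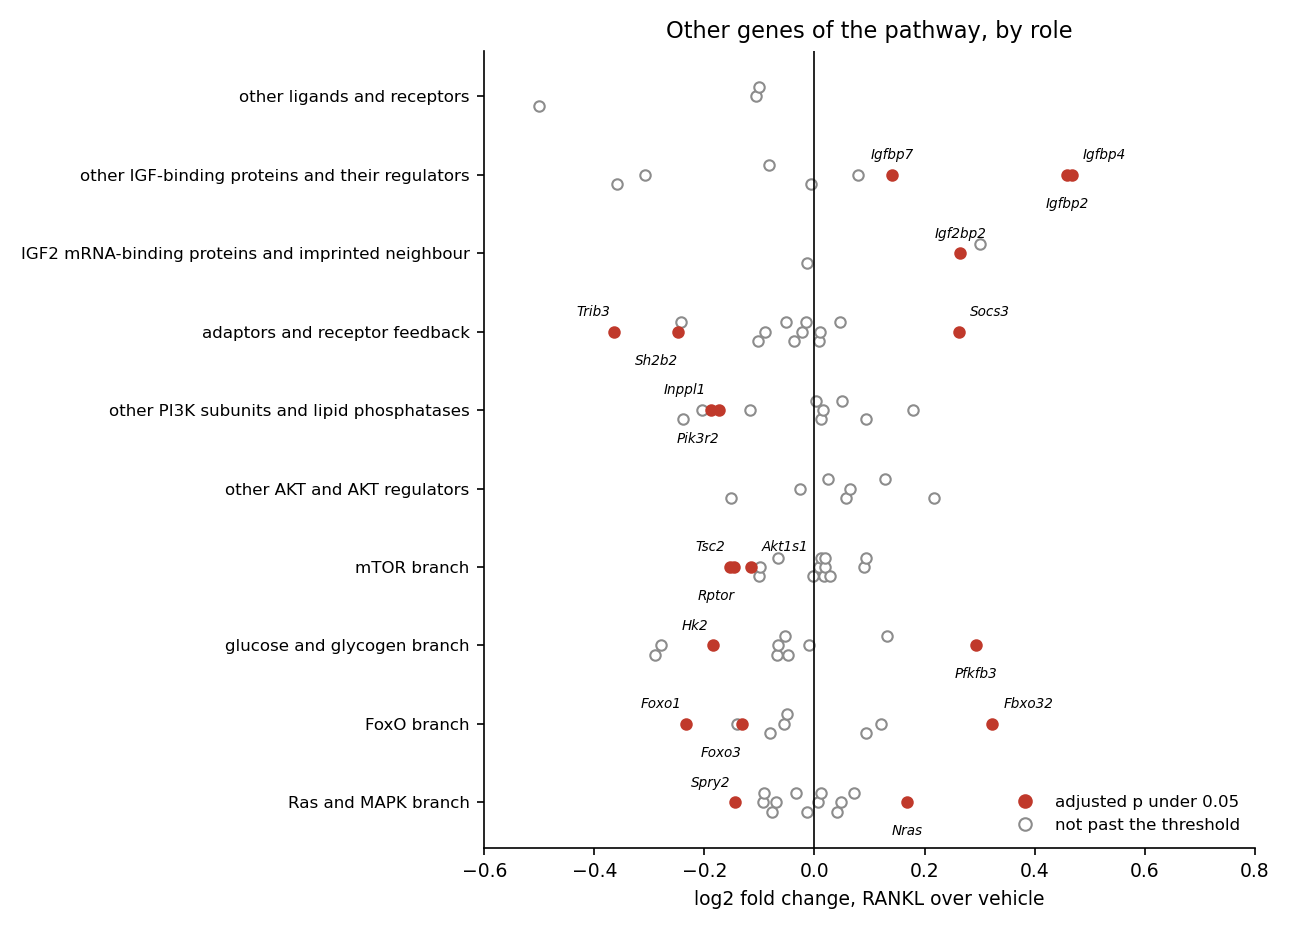
Log2 fold change, RANKL over vehicle, of the 92 other pathway genes in rows by role, each point 1 gene, filled and named where the adjusted p is under 0.05. Called genes lie between -0.36 (Trib3) and 0.47 (Igfbp4), with the called binding proteins to the right and the called mTOR branch genes to the left of 0. Genes of both rows that were not called lie on either side of 0.

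Of 8 measured genes for other IGF-binding proteins and their regulators, 3 were called higher, 0 lower and 5 neither way. The 3 were the binding proteins Igfbp2, Igfbp4 and Igfbp7, whose sign was opposite to that of Igfbp5. Igfbp2 had 75.8, 57.4 and 54.0 CPM with RANKL and 47.6, 39.7 and 48.9 CPM with vehicle (log2 fold change 0.46 ± 0.10, adjusted p = 0.00872). RANKL replicate 1 stood well above the rest, and without it the value was 0.29, still called. Igfbp2 was not called without vehicle replicate 2 or in DESeq2 (adjusted p = 0.084). Igfbp4 averaged 7.28 ± 0.784 CPM with RANKL and 5.27 ± 0.249 CPM with vehicle (log2 fold change 0.47 ± 0.10, adjusted p = 0.00714). Igfbp7, a low-affinity relative, averaged 116 ± 4.85 and 105 ± 6.37 CPM with overlapping groups (0.14 ± 0.04, adjusted p = 0.0495), and lost its call without either of vehicle replicates 1 and 2 or RANKL replicates 2 and 3. Nor was Igfbp7 called with limma-trend on the deposited log2 values (adjusted p = 0.0783) or with the trend on gene length removed (0.08, adjusted p = 0.186). Igf2bp2, an RNA-binding protein whose targets include the Igf2 message, rose to 42.1, 41.6 and 43.0 CPM with RANKL, against 35.7, 35.7 and 34.0 CPM with vehicle (0.26 ± 0.04, adjusted p = 0.000918). It was the 1 called gene of 3 in its list.

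Among other ligands and receptors 0 of 3 measured were called in edgeR's test. All 3 had an unadjusted p under 0.05, as had 3432 of all 12625 genes. Igf1 averaged 53.1 ± 1.78 CPM with RANKL and 57.2 ± 2.24 CPM with vehicle without overlap (log2 fold change -0.11 ± 0.04, adjusted p = 0.11). Igf1 was called with the GC trend removed (-0.18, adjusted p = 0.0134). Igf2r, the receptor that clears IGF2, averaged 286 ± 9.78 and 307 ± 13.9 CPM (-0.10 ± 0.04, adjusted p = 0.0985), and was called without vehicle replicate 3 or without RANKL replicate 1. The cycling and myotube marker sums given above differ between the same libraries, and their part in these values was not tested.

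Of 13 adaptors and feedback genes 1 was called higher and 2 lower. Socs3, a cytokine-induced inhibitor that can target IRS proteins for degradation, rose to 38.9, 41.8 and 38.9 CPM with RANKL, against 35.7, 32.0 and 31.8 CPM with vehicle (log2 fold change 0.26 ± 0.05, adjusted p = 0.00472). Its direction was opposite to that of Irs1 RNA, and a link between them was not tested. Sh2b2, a receptor-binding adaptor, averaged 8.69 ± 0.339 and 10.3 ± 0.255 CPM (-0.25 ± 0.07, adjusted p = 0.0385). Trib3, a pseudokinase that binds AKT, averaged 4.98 ± 0.728 and 6.44 ± 0.0837 CPM (-0.36 ± 0.11, adjusted p = 0.0399). Sh2b2 and Trib3 each lost the call when any 1 vehicle replicate or RANKL replicate 2 or 3 was left out, with total-count scaling, in DESeq2 and once the GC trend was removed. Sh2b2 lost it with limma-trend too.

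Downstream, 2 of 11 PI3-kinase subunits and lipid phosphatases fell and 0 rose. Inppl1, the SHIP2 phosphatase that removes the PI3-kinase product, averaged 510.5 ± 13.1 CPM with RANKL and 582 ± 12.2 CPM with vehicle (log2 fold change -0.19 ± 0.03, adjusted p = 0.00149). Pik3r2, the beta form of the regulatory subunit, averaged 108.0 ± 2.56 and 122 ± 3.84 CPM (-0.17 ± 0.03, adjusted p = 0.00482). Of 7 genes for AKT and its regulators 0 were called by edgeR. An unadjusted p under 0.05 was seen in 2 of them and in 3432 of all 12625 genes.

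In the mTOR branch 3 of 15 genes were called lower and 0 higher: Tsc2, a brake on mTORC1, and the mTORC1 components Rptor and Akt1s1. Over all genes 7.5% were called lower and 5.35% higher. The other 12 genes of the branch were not called, and its median log2 fold change was 0.01. In 4 of its genes every RANKL library lay below every vehicle library, and in 2 above. Tsc2 averaged 152 ± 2.50 CPM with RANKL and 169 ± 1.304 CPM with vehicle (log2 fold change -0.15 ± 0.03, adjusted p = 0.00439), and Rptor 237 ± 7.15 and 262 ± 5.62 CPM (-0.15 ± 0.03, adjusted p = 0.00985). Akt1s1 averaged 95.9 ± 1.03 and 103.9 ± 2.76 CPM (-0.12 ± 0.03, adjusted p = 0.0336) and lost the call whichever of the 6 libraries was left out. It was not called with total-count scaling (adjusted p = 0.122), in DESeq2 (0.0597) or with the GC trend removed (-0.07, adjusted p = 0.231). These genes include both an inhibitor and a scaffold of the complex. Mtor itself did not pass (184 ± 5.79 and 197 ± 8.73 CPM, -0.10 ± 0.04, adjusted p = 0.104), except without RANKL replicate 1.

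Of 10 glucose and glycogen genes 1 rose and 1 fell. Pfkfb3, which makes the allosteric activator of glycolysis, averaged 16.6 ± 0.415 CPM with RANKL and 13.5 ± 0.834 CPM with vehicle (log2 fold change 0.29 ± 0.06, adjusted p = 0.00817). Hk2, the insulin-induced muscle hexokinase, averaged 172 ± 6.44 and 196 ± 3.8 CPM (-0.18 ± 0.03, adjusted p = 0.003). Slc2a4, the insulin-responsive glucose transporter GLUT4, was low in these cells, at 3.40, 2.91 and 2.11 CPM with RANKL and 3.52, 3.10 and 3.63 CPM with vehicle. Its log2 fold change of -0.28 ± 0.16 had a wide interval of -0.62 to 0.06 (adjusted p = 0.284), and the value was -0.44 without RANKL replicate 1 and -0.11 without RANKL replicate 3.

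In the FoxO branch, 1 of 9 genes rose and 2 fell. Fbxo32, the muscle ubiquitin ligase atrogin-1 that FoxO factors induce, rose to 187, 172 and 173 CPM with RANKL, against 143, 143 and 139 CPM with vehicle (log2 fold change 0.32 ± 0.04, adjusted p = 7.22e-05). Foxo1 fell to 49.7, 51.5 and 49.8 CPM, against 58.7, 62.5 and 56.6 CPM with vehicle (-0.23 ± 0.04, adjusted p = 0.00243). Foxo3 averaged 50.5 ± 0.713 and 55.3 ± 1.65 CPM (-0.13 ± 0.04, adjusted p = 0.0349) and was called neither without vehicle replicate 1 or 2 nor without any 1 of the RANKL replicates. Foxo3 was also not called with total-count scaling (adjusted p = 0.0908) or in DESeq2 (0.0822). In the Ras and MAPK branch, 1 of 13 rose and 1 fell: the GTPase Nras (94.2 ± 2.58 and 84.0 ± 3.68 CPM, 0.17 ± 0.04, adjusted p = 0.0106), not called without vehicle replicate 3 or with the GC trend removed (0.11, adjusted p = 0.0773), and the feedback inhibitor Spry2 (37.6 ± 0.807 and 41.6 ± 0.594 CPM, -0.15 ± 0.04, adjusted p = 0.0299), which lost the call without any 1 vehicle replicate, without RANKL replicate 2 or 3, with total-count scaling and in DESeq2.

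The genes whose log2 CPM followed Igfbp5 most closely over the 6 libraries, among 11924 with a mean of at least 1 CPM, were Alas1 (Pearson r = 0.9965), Mbd6 (0.9963), Sf3a2 (0.9954), Polr2m (0.9925) and Ddx54 (0.9923). For Igf2 they were Efna4 (0.9941), Slc45a3 (0.9879), Tcf12 (0.9878), Klhl18 (0.9869) and Utp14b (0.9813). With 6 points that share 2 groups and their libraries' scaling, these values are a description only. Of the genes nearest Igfbp5, Alas1 (log2 fold change -0.12, adjusted p = 0.0428), Mbd6 (-0.31, adjusted p = 0.000225) and Sf3a2 (-0.15, adjusted p = 0.00922) were themselves called lower. The 5 genes nearest Igf2 were not called.

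**Figure D5:**
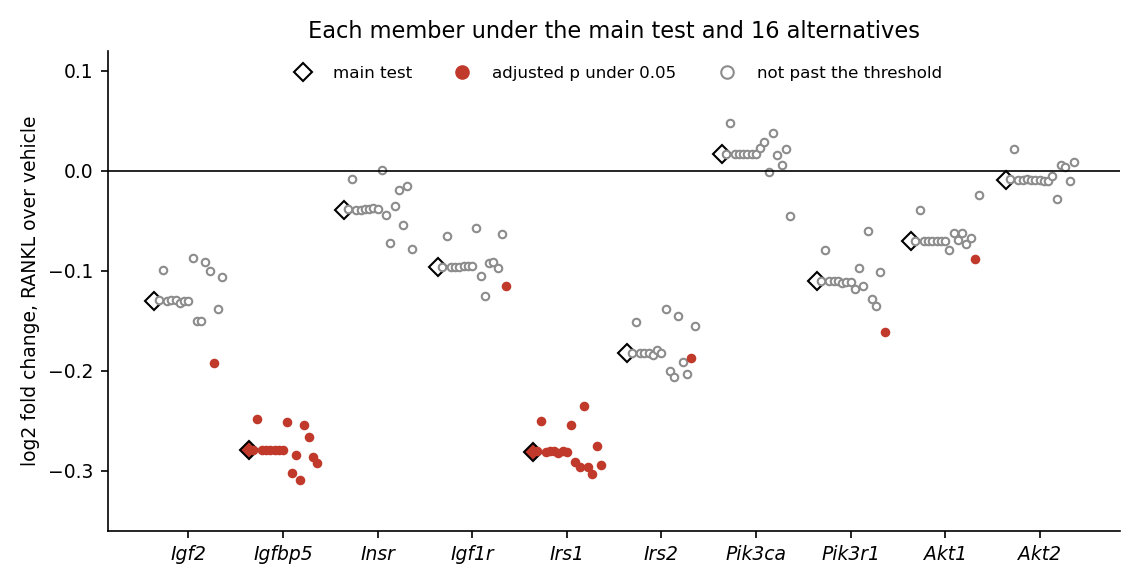
Log2 fold change of each member, RANKL over vehicle, in the result as reported and under 16 other processing choices, each point 1 choice, filled where the adjusted p is under 0.05. Irs1 stays between -0.30 and -0.24 and Igfbp5 between -0.31 and -0.25, called in every one, while other members cross the threshold in a few.

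Irs1 and Igfbp5 passed the threshold in all 16 alternatives tried, with a log2 fold change of -0.30 to -0.24 for Irs1 (adjusted p 1.68e-07 to 0.0062) and of -0.31 to -0.25 for Igfbp5 (adjusted p 4.24e-11 to 0.00437). The other 8 members crossed the threshold at most under removal of a trend on gene length or GC content, or, for Igf2, without RANKL replicate 3. The main filter removed no genes, so the alternative without a filter equalled the main fit.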

How the data were processed

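The submitters' processing notes name FastQC, STAR, edgeR and the build mm10, without versions. Which counter and annotation were used, and whether by strand, is not given here by any source used. Per the labels' protocols, RNA of all samples was isolated and sequenced at one time, in paired-end reads. The deposited raw count table holds whole-number counts of 12625 genes, from which the authors had removed low genes: the third-highest library of every gene had at least 0.504 CPM. Its 4708 lines with no gene were left out. The deposited log2 table names no unit. Its values differ from log2 CPM by a constant per gene (median SD over libraries 9.981e-05), which correlates with log2 exon length over genes (r = 0.7877), so they were read as log2 RPKM. The median of that constant minus log2 exon length in kb was -0.4937, so the lengths behind these values were typically shorter than the exon lengths.

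Counts were tested with edgeR 4.0.16 in R 4.3.3 (TMM scaling, factors 0.980 to 1.01; filterByExpr, which removed 0 genes; quasi-likelihood F test; Benjamini-Hochberg adjustment over all genes). SE is the size of the log2 fold change over the root of F, and CPM use scaled totals. Chi-square per gene between libraries of 1 group was 3.39 to 9.52, above sampling noise, so all 6 were kept. Alternatives used DESeq2 1.42.0 and limma 3.58.1, and ratios SciPy 1.17.1. Simulated data for 12625 genes held 200 changed genes, fewer than the 1623 called in the real data. In the simulation 53% of changes of log2 0.2 and 88% of log2 0.5 were recovered, and 4.08% of calls were unchanged genes. These rates belong to that setting and may differ for the real data. Positions are from GENCODE M21 (12176 symbols direct, 379 by an older name, 70 unmatched).

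The members and gene lists were chosen with earlier results of these data known. Named were all members, from each list up to 4 called genes by smallest p or else the nearest to the threshold, then Igf1, Igf2r, Foxo1, Mtor, Slc2a4 and H19, and the 5 genes closest in pattern to Igf2 and Igfbp5. Some genes that this rule names are not reported here.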

Additional observations from a re-analysis of the deposited data

How the results depend on the processing

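Irs1 and Igfbp5 kept direction and call in all 16 alternatives, 14 planned and 2 (trends on gene length or GC content removed) chosen after seeing the data. Of the 14, the 1 without a filter was the main fit again, because filterByExpr removed 0 genes. Members called higher stayed at 0 in all. Members called lower were 4 with the length trend removed (adding Irs2, -0.19, adjusted p = 0.039, and Akt1, -0.09, 0.0346, against -0.02, 0.663, with the GC trend removed) and 4 with the GC trend removed (adding Igf1r, -0.11, 0.0427, and Pik3r1, -0.16, 0.0118). With 1 library left out, members lower ranged from 2 to 3, genes higher from 373 to 746 (lowest without vehicle replicate 2, 426 without vehicle replicate 1), genes lower from 537 to 880 (lowest without vehicle replicate 2, 561 without vehicle replicate 1, 596 without RANKL replicate 2), and other pathway genes lower from 6 to 13 (6 without RANKL replicate 2 and without either of vehicle replicates 1 and 2). Total-count scaling gave 1070 genes higher, 626 lower and 6 other pathway genes lower, and DESeq2 6 of the last. Of 19 called pathway genes outside the members 11 kept the call throughout. Values near 0 changed sign: Akt2 (0.0215 with total counts, 0.0089 with the GC trend removed, -0.0285 to 0.00569 with 1 library left out), H19 (0.0169, 0.00844, and -0.0283 to 0.000115), Pik3ca (-0.0457 with the GC trend removed, -0.00111 to 0.0377 with 1 library left out) and Insr (-0.0720 to 0.000258 with 1 library left out). The causes were not tested.

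Libraries of the same replicate number were weakly correlated (correlations of deviations 0.0693, 0.0369 and 0.0182), although each library correlated best with its own number. For RANKL replicate 3 this was nearly a tie, at 0.01817 with vehicle replicate 3 and 0.01813 with vehicle replicate 2. Whether the libraries were paired was not tested. With the replicate block 730 genes were higher and 1008 lower, and members lower stayed at 2. Slc2a4 rested on 70 to 128 counts in RANKL libraries and 103 to 137 in vehicle libraries.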
